A study of Mus musculus with 4 samples.

Results

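A set of 9 cytokine and cytokine-binding genes of the IL-1 and TNF axis was followed through the ascites cells of tumor-bearing mice. The members, 9 of the 32285 genes in the files, were taken by gene name: Il1a, Il1b, Il1rn, Il1r2, Tnf, Il6, Il10, Il18 and Il18bp. The list was drawn up with earlier results of these data known. Female FVB mice received Br-Luc ovarian tumor cells into the peritoneal cavity and were then given siRNA-LNA in jetPEI by the same route, either a control siRNA (labelled siCont) or an siRNA against Fxr1 (labelled siFXR1-LNA). Ascites was taken 6 weeks after the injection of tumor cells, red cells were lysed, and single cells were profiled by droplet 3′ RNA sequencing in 2 libraries per group. Mice of both groups carried the tumor and received the carrier, and there was no untreated or tumor-free library. Per the methods, each library held the pooled ascites of several mice, so the 2 libraries of a group are pools, p-values measure the spread between pools, and differences between single mice cannot be seen.

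IL-1α and IL-1β, encoded by Il1a and Il1b, bind the same signalling receptor, which acts through Myd88, the Irak kinases, Traf6 and NF-κB to induce further inflammatory genes. The pathway carries its own brakes: Il1rn encodes the receptor antagonist that occupies the receptor without a signal, and Il1r2 encodes a decoy receptor that binds IL-1 and does not signal. Tnf is a second early cytokine that converges on NF-κB, Il6 is one of the genes these signals induce, and Il10 encodes an anti-inflammatory cytokine of myeloid and lymphoid cells. Il18 belongs to the IL-1 family and is released after inflammasome cleavage, and Il18bp encodes the soluble protein that neutralizes it. In peritoneal fluid, macrophages and recruited neutrophils are the known main producers of IL-1.

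The 4 libraries held 17309 to 54665 barcodes and 78179267 to 113606837 UMIs (unique molecular identifiers, one per captured transcript), of which hemoglobin took 29.5% and 41.1% in the siCont replicates and 10.0% and 9.11% in the siFXR1-LNA replicates. The targeted gene Fxr1, on chromosome 3 from 34019943 to 34070322 (GRCm38), had 55.8 and 33.9 CPM (the gene's UMIs per 1000000 UMIs) in siCont replicates 1 and 2, against 104 and 71.8 CPM in those labelled siFXR1-LNA. Without hemoglobin in the totals these levels were 80.3, 59.4, 116 and 80.0 CPM. By total UMIs both siFXR1-LNA libraries thus had more Fxr1 than the siCont libraries, and without hemoglobin the groups overlapped. Per 1000000 UMIs of a cell type, mean Fxr1 was 117 in siCont and 139 in siFXR1-LNA in the cluster called epithelial below. In macrophages these means were 63.1 and 71.1. The siFXR1-LNA mean was the lower one only in migratory DCs (72.1 and 66.6) and in the few platelets. The groups are therefore called by their labels throughout. Of the 132644 cells kept, macrophages numbered 4371 and 2140 in the siCont replicates and 3931 and 3667 in the siFXR1-LNA replicates, while granulocytes numbered 433 and 897 against 5439 and 4768. All markers listed for both types were detected in every library. Per the methods, the study's own analysis dropped a siFXR1-LNA library for its low reads and cell number, and which one is not given. In the files siFXR1-LNA replicate 2 had 78179267 UMIs and 16874 kept cells, against 113606837 UMIs and 54344 cells in replicate 1. All 4 libraries were used, and calls lost without replicate 2 are named beside each result. An unnamed cluster with low depth held 41038 and 5428 cells labelled siFXR1-LNA and 57 and 53 cells labelled siCont and was kept out of the comparisons. Between 2556 and 5849 barcodes of each library also occurred in another library.

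The promoters of 5 members are shown because these were the members that rose in macrophages. Il1r2 lies on chromosome 1 from 40074079 to 40125231, Il1rn on chromosome 2 from 24336853 to 24351494, Il1a on chromosome 2 from 129299610 to 129309972, Il1b on chromosome 2 from 129364570 to 129371139 and Tnf on chromosome 17 from 35199381 to 35202007 (GRCm38, GENCODE vM21), so that Il1a and Il1b are neighbours on the minus strand. Of the 9 members 8 matched the RefSeq promoters, and Il10 had no entry. Each line gives the 150 bases before the RefSeq start (GRCm38.p6), 5′ to 3′ on the strand of the gene, with motif matches in capitals. For Il1rn the first of 3 listed starts is shown. The listed start of Il1r2 lies inside the gene as GENCODE draws it.
Il1a, chr2:129309973-129310122, minus strand: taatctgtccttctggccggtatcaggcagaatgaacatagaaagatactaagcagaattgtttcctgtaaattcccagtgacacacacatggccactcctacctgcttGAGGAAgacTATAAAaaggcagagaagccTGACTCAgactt
Il1b, chr2:129371140-129371289, minus strand: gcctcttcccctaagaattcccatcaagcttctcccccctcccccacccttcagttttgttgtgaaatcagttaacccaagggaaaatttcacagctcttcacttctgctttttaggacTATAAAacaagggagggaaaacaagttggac
Tnf, chr17:35202008-35202157, minus strand: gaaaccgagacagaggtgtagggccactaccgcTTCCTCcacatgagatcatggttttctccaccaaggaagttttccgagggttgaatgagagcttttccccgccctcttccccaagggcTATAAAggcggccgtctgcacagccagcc
Il1rn, chr2:24336710-24336859, plus strand: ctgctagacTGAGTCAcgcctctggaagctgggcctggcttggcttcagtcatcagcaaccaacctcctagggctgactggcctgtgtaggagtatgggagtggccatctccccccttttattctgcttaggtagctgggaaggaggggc
Il1r2, chr1:40085943-40086092, plus strand: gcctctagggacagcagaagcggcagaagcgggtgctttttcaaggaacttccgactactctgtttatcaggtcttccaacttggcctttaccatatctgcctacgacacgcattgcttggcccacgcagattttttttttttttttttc

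Searched on both strands were the TATA box (TATAAA), C/EBP (TTGCNNAA), PU.1 (GAGGAA), AP-1 (TGANTCA, a palindrome that matches on both strands at once) and the NF-κB consensus by name, over 250 bases before the start. Among 32851 mouse promoters 12.4% held the TATA match, 9.56% C/EBP, 23.3% PU.1, 6.75% AP-1 and 3.90% NF-κB. Il1a, Il1b and Tnf each carried a TATA match close to the start, 32 to 27 bases before it in Il1a, 31 to 26 in Il1b and 29 to 24 in Tnf. Il1a also held a PU.1 match 41 to 36 bases and an AP-1 match 12 to 6 bases before its start. In Tnf a PU.1 match on the reverse strand lay 117 to 112 bases upstream, and in Il1rn an AP-1 match lay 141 to 135 bases upstream. Il1r2 had no match to these letters in the window. Il6, a member that did not pass the test in macrophages, held an NF-κB match 44 to 35 bases before its start. These matches describe the letters and not binding.

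The members differed in their source cells, and several shared the type with the highest level. UMIs were summed over the cells of a type in each library and divided by the type's UMIs in that library, which gives the CPM used from here on. The types were built from the same counts, so differences between types are a description with no test. Il1b was highest in granulocytes, at 407 to 1027 CPM over the 4 libraries, and the next types were migratory DCs (70.6 to 263 CPM), DCs (50.8 to 264 CPM) and macrophages (23.5 to 139 CPM). The ranges of those 3 overlapped. Within every library macrophages were the lowest of the 3, while the order of DCs and migratory DCs changed between libraries. Il1r2 showed a wide gap between types, with 941 to 1895 CPM in granulocytes against 41.1 to 165 CPM in DCs. Il1rn was also highest in granulocytes (61.4 to 743 CPM), and its range there overlapped that of migratory DCs (14.9 to 92.5 CPM). Within every library granulocytes held more Il1rn than migratory DCs.

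Il1a, Il18bp and Il10 had their highest mean levels in macrophages. For Il1a the macrophage range was 4.38 to 44.8 CPM, and it overlapped that of granulocytes (0 to 25.7 CPM). Within every library macrophages held more Il1a than granulocytes. Il18bp stood at 17.4 to 32.8 CPM in macrophages and 17.5 to 29 CPM in migratory DCs. Il18 was found at 29.1 to 47.1 CPM in DCs and 24.9 to 37.2 CPM in macrophages, ranges that overlap, and every library had less in granulocytes (3.44 to 17.1 CPM). Tnf was less tied to one type, with 23.6 to 86.1 CPM in granulocytes, 3.87 to 32.9 CPM in T cells and 7.88 to 16.1 CPM in macrophages. Il6 and Il10 were sparse, with 193 and 335 UMIs in all 4 libraries together. The plot of levels by type shows these patterns.

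**Figure D1:**
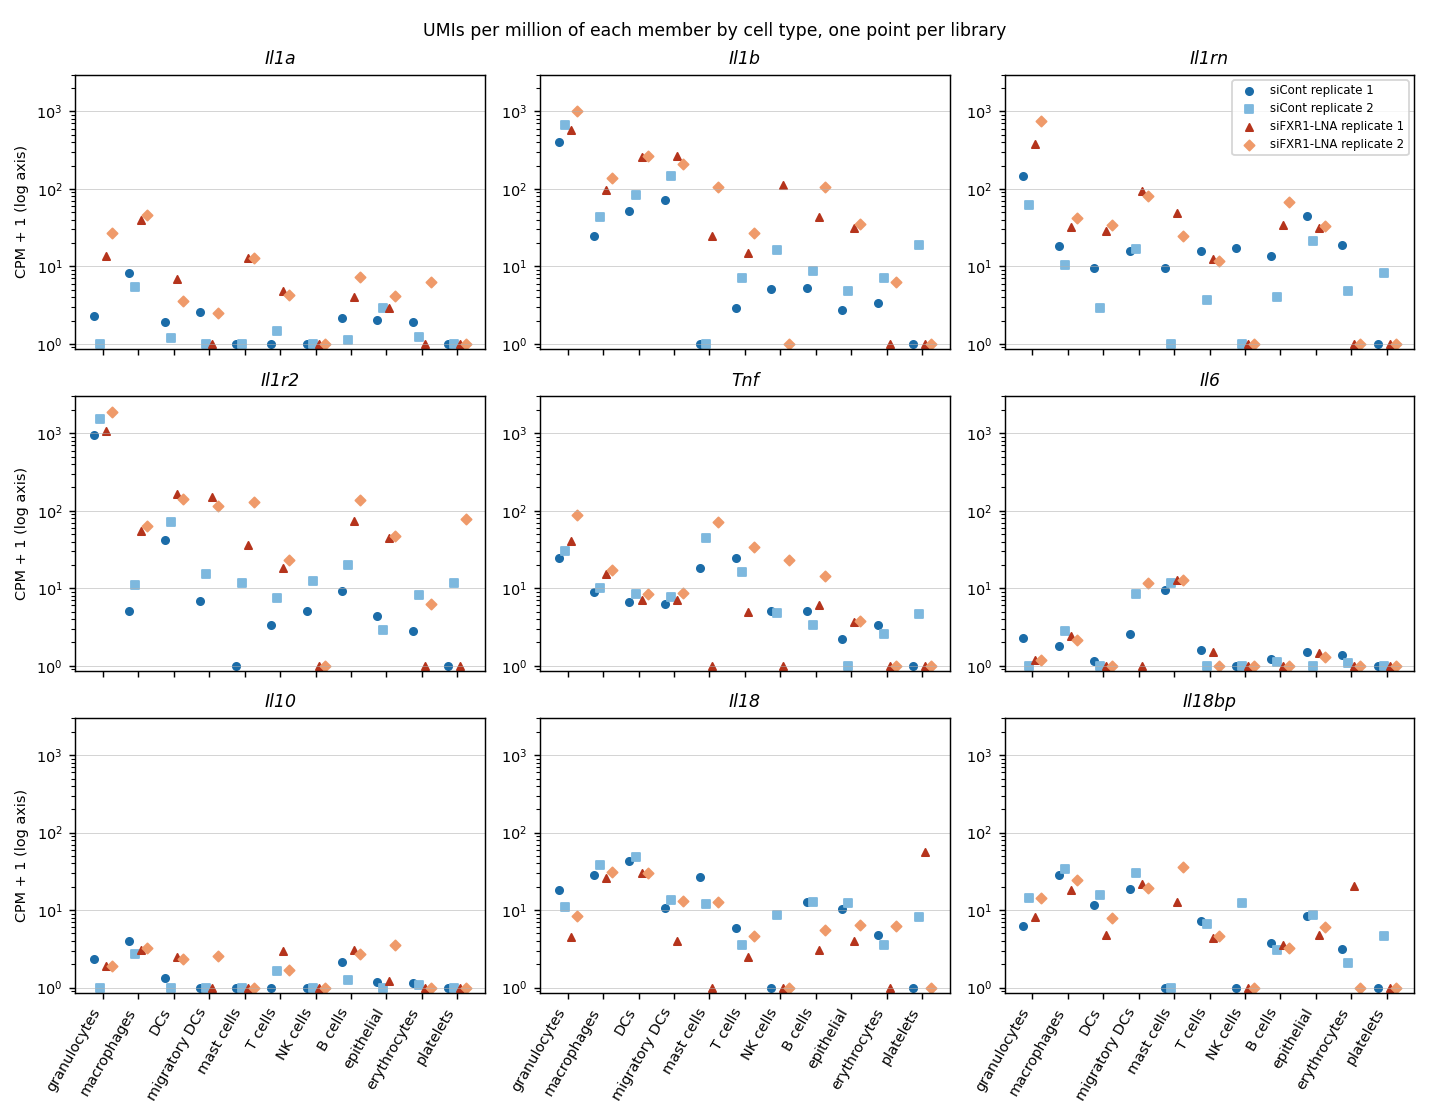
Level of each member (CPM + 1, log axis) in each named cell type, with 1 point per library, whose color and shape give the library. Il1b, Il1r2 and Il1rn are highest in granulocytes and Il1a in macrophages, and the siFXR1-LNA points of Il1a, Il1b and Il1r2 lie above the siCont points in macrophages.

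The cells that supplied each transcript differed between the libraries. Granulocytes held 19.6%, 37.9%, 58.5% and 64.5% of all Il1b UMIs in siCont replicates 1 and 2 and siFXR1-LNA replicates 1 and 2, the order used for all lists of 4 values. Of Il1rn UMIs granulocytes held 6.09%, 20.0%, 63.7% and 79.5%, and droplets named erythrocytes held 40.8%, 28.2%, 0% and 0%. Erythrocytes are not known to make Il1rn, and siCont replicate 1 had Il1rn at 18.1 CPM in erythrocytes, 12.4 in B cells and 14.7 in T cells, close to its 17.3 CPM in macrophages. Il1rn in the macrophages of that library was therefore at a level also found in cells not known for it. The libraries labelled siFXR1-LNA held 22 and 63 erythrocytes. Il1a came mainly from macrophages in every library, at 64.8%, 79.2%, 64.6% and 77.1% of its UMIs. Over whole libraries, Il1b stood at 16.1, 36.4, 101 and 263 CPM, values that mix the number of granulocytes with the level per cell.

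In macrophages, 5 of 9 members rose in the libraries labelled siFXR1-LNA, 2 agonists of the IL-1 receptor, both IL-1 inhibitors and Tnf, and no member fell. Of all 14297 genes tested in macrophages 19.3% were called and 9.42% were higher, so many genes outside the list moved as well. All 9 members passed the filter on low counts there, and their median log2 fold change was 1.03, beside 0.0071 over all genes. Il1a, the IL-1 that can act from the cell surface, had 7.32 and 4.38 CPM in siCont replicates 1 and 2, against 38.5 and 44.8 CPM in those labelled siFXR1-LNA. Both siFXR1-LNA libraries lay above both siCont libraries (log2 fold change 3.01 ± 0.25 (SE), adjusted p = 0.0055, by the quasi-likelihood test of edgeR and adjusted over all genes after Benjamini and Hochberg, as for every adjusted p here). Il1b, the secreted IL-1 that needs cleavage by caspase-1, had 23.5 and 43.1 CPM in siCont replicates 1 and 2, against 96.6 and 139 CPM in those labelled siFXR1-LNA. The group means of Il1b were 33.3 ± 13.9 (SD, n = 2) CPM labelled siCont and 118 ± 30.2 (SD, n = 2) CPM labelled siFXR1-LNA, with no overlap between the libraries (log2 fold change 2.01 ± 0.36 (SE), adjusted p = 0.023). Tnf had 7.88, 9.04, 14.1 and 16.1 CPM, the smallest of the 5 rises (log2 fold change 1.03 ± 0.17 (SE), adjusted p = 0.021).

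Both IL-1 inhibitors rose in macrophages beside the agonists. Il1rn had 17.3, 9.56, 31.7 and 41.3 CPM (log2 fold change 1.63 ± 0.29 (SE), adjusted p = 0.023). Il1r2, the decoy receptor, had 4.03, 9.91, 53.1 and 62.2 CPM (log2 fold change 3.25 ± 0.44 (SE), adjusted p = 0.013). Of the 5 calls, that of Il1a held whichever library was left out. Without siFXR1-LNA replicate 1 the adjusted p was 0.071 for Il1b, 0.092 for Il1rn, 0.064 for Il1r2 and 0.083 for Tnf. Without siFXR1-LNA replicate 2 it was 0.092, 0.12, 0.062 and 0.10, and without siCont replicate 1 it was 0.059 for Tnf. The directions stayed the same in each case.

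RNA of granulocyte markers moved with these rises. The 8 listed granulocyte markers, all detected in every library, summed to 105, 418, 1112 and 1350.3 CPM in macrophages. Il1r2 per 1000 of these marker UMIs was 38.4, 23.7, 47.8 and 46.1 in macrophages and 25.2, 19, 37.7 and 42.1 in granulocytes. In each library Il1r2 in macrophages was thus above the proportion in granulocytes, by less than the libraries of a type differed among themselves. For Il1b the same quotient was 224, 103, 86.9 and 103 in macrophages and 10.9, 8.34, 20.2 and 22.8 in granulocytes, so that macrophages held more Il1b for their granulocyte RNA in all 4 libraries. Il1rn per 1000 marker UMIs was 165, 22.9, 28.5 and 30.6 in macrophages and 3.91, 0.760, 13.3 and 16.5 in granulocytes. B cells held Il1r2 at 8.25, 19.2, 73.1 and 136 CPM, above macrophages in all 4 libraries. They held Il1rn at 12.4, 3.04, 33.3 and 67.3 CPM, above macrophages in both siFXR1-LNA libraries and below them in both siCont libraries. The levels of both inhibitors in siFXR1-LNA macrophages were therefore no higher than in B cells. The part of granulocyte RNA in the macrophage changes was not tested.

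**Figure D2:**
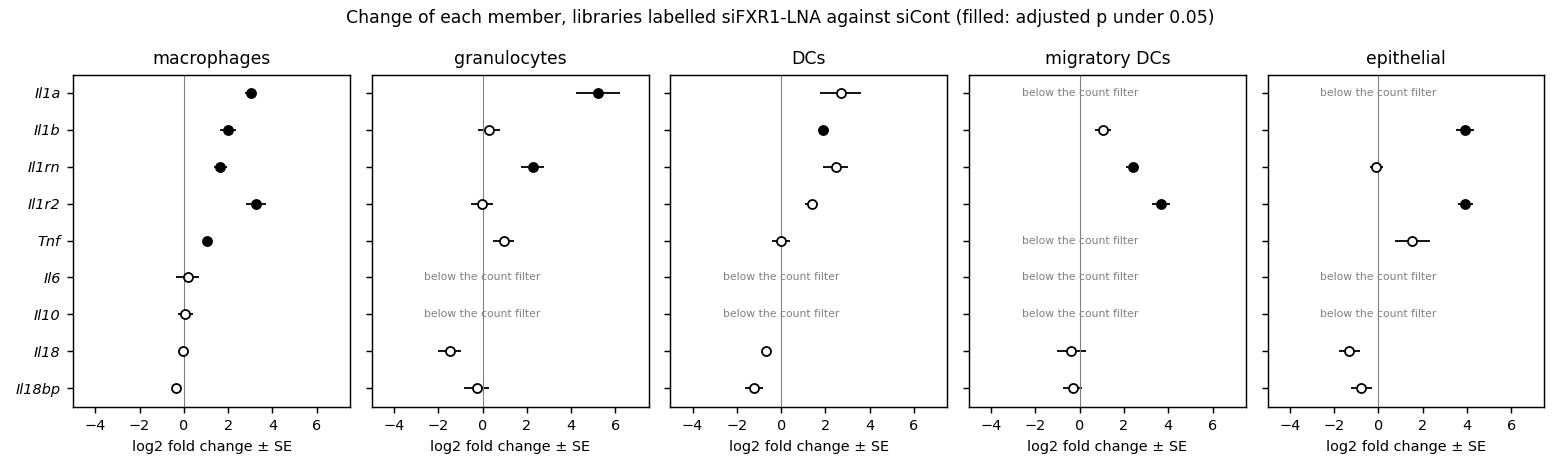
Log2 fold change (siFXR1-LNA against siCont, points) with its standard error (bars) for each member, with filled points for an adjusted p under 0.05. The types shown are macrophages, granulocytes, DCs, migratory DCs and epithelial cells, and the other tested types are not drawn. Macrophages show 5 rises and granulocytes 2, and Il6, Il10, Il18 and Il18bp are uncalled in macrophages.

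The macrophages of the groups fell into different subclusters. A second round of clustering divided them into subclusters, of which subcluster 0 (led by Alox15 and Prg4, with 2977, 1227, 1182 and 1292 cells) was shared by all libraries. Subcluster 1 (led by Saa3 and Nos2) held 114 and 44 cells of the siCont replicates and 2724 and 2330 of the siFXR1-LNA replicates. Subcluster 2 (led by Slfn4 and Cxcl10) held 1036 and 713 siCont cells and 0 and 1 siFXR1-LNA cells. A difference between groups over all macrophages is therefore also a difference between these subclusters.

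Il1a was highest in the Saa3 and Nos2 subcluster, with 46.7 and 61.7 CPM in its siFXR1-LNA cells, whereas the shared Alox15 and Prg4 subcluster had 8.23, 5.66, 12.5 and 7.38 CPM of Il1a with overlapping groups. Il1b had 119 and 183 CPM in siFXR1-LNA cells of the Saa3 and Nos2 subcluster, and 82.3 and 104 CPM in siCont cells of the Slfn4 and Cxcl10 subcluster. High Il1b was thus found in a different macrophage subcluster in each group. In the shared subcluster Il1b was lower than in both, at 5.96, 7.44, 23.4 and 41.2 CPM, and Il1r2 was at 2.46, 7.44, 69.6 and 58.4 CPM. The siFXR1-LNA libraries were higher in both cases, and also for Il1rn there, with 16.2, 3.56, 24.4 and 26.8 CPM.

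Fitted in the shared subcluster alone, a choice made after seeing the data, no member was called. On the log2 scale the estimate for Il1b was 2.28 (adjusted p = 0.31), for Il1r2 3.76 (0.31), for Il1rn 1.35 (0.56), for Tnf 0.48 (0.62) and for Il1a 0.51 (0.69). In that fit edgeR called 0 of 12609 genes, with 1197 at an unadjusted p under 0.05, so that the absence of calls was not particular to the members. The estimates for Il1b and Il1r2 were as large within the shared cells as over all macrophages, and the estimate for Il1a was 0.51 there against 3.01 over all macrophages. Beside the granulocyte markers, the shared subcluster held 55.7, 15, 21 and 28.6 Il1b UMIs per 1000 marker UMIs, where granulocytes held 10.9, 8.34, 20.2 and 22.8, so that the proportions were close in the siFXR1-LNA libraries and higher in the shared subcluster in the siCont libraries.

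**Figure D3:**
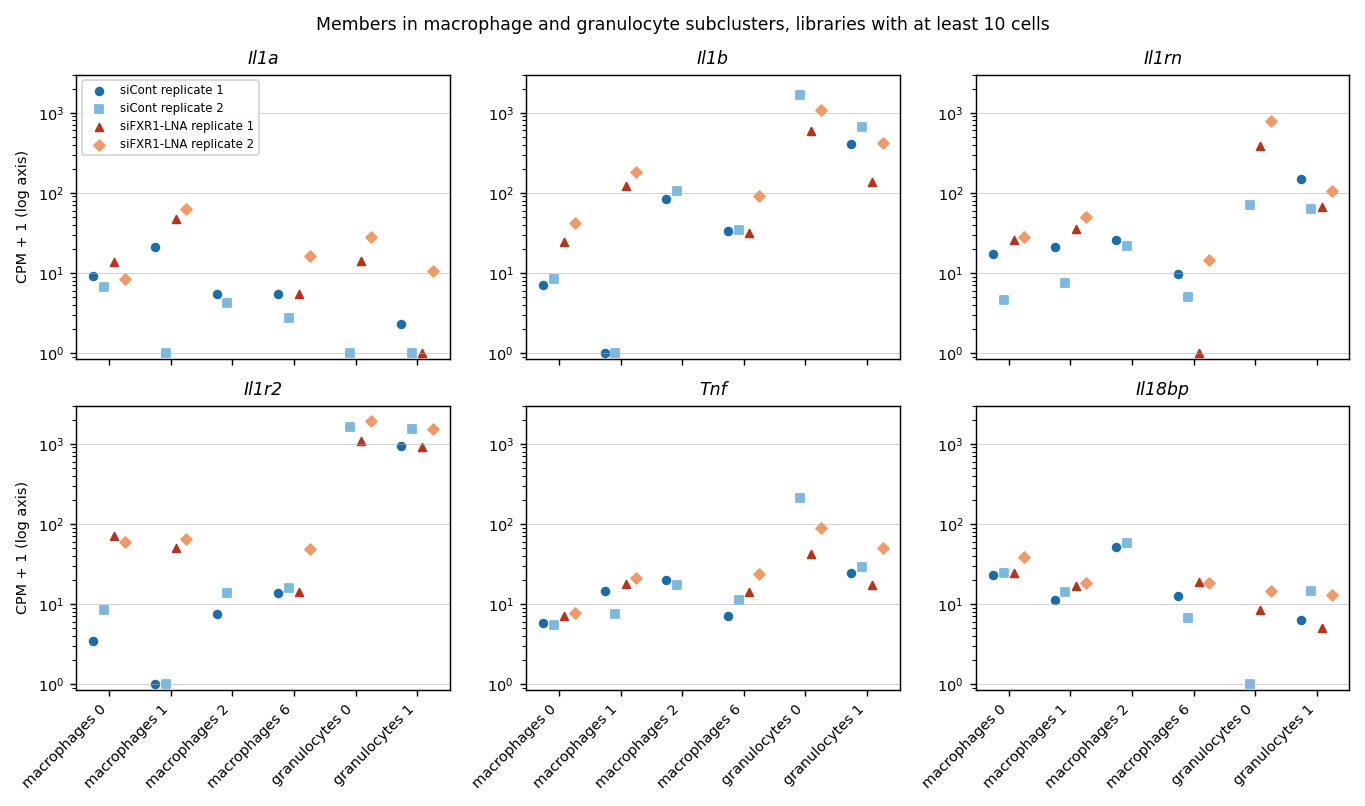
Levels of the members (CPM + 1, log axis) in the macrophage and granulocyte subclusters, with 1 point for each library that had at least 10 cells there, whose color and shape give the library. Il1a and Il1b are high in the siFXR1-LNA cells of the Saa3 and Nos2 macrophages, Il1b is high in the siCont cells of the Slfn4 and Cxcl10 macrophages, and Il1rn is high in the Ccrl2 and Ccl3 granulocytes.

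Granulocytes, the cells with the most Il1b and Il1r2, showed another pattern: the antagonist Il1rn and the low Il1a rose, and Il1b and Il1r2 did not pass the test. Of 7 members tested 2 rose, against 3.58% of all 12276 genes called and 1.1% called higher. Il1rn had 146 and 61.4 CPM in siCont replicates 1 and 2, against 379 and 743 CPM in those labelled siFXR1-LNA. Both siFXR1-LNA libraries exceeded both siCont libraries (log2 fold change 2.27 ± 0.52 (SE), adjusted p = 0.039), and without siFXR1-LNA replicate 2 the change was 1.67 with an adjusted p of 0.38. Il1a rested on few control UMIs, 1 and 0 in the siCont replicates against 143 and 295 in the siFXR1-LNA replicates. Its adjusted p was 0.019, and 0.058 without siFXR1-LNA replicate 2. The ratio of pooled Il1a levels was 47.8, with a 95% counting interval of 8.54 to 1893 that covers counting error only. In siCont replicate 2 a count of 0 allows up to 1.74 CPM.

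Il1b in granulocytes had 407 and 674 CPM in siCont replicates 1 and 2, against 575 and 1027 CPM in those labelled siFXR1-LNA. The groups overlapped, and the spread within each group was large beside the difference (log2 fold change 0.28 ± 0.49 (SE), adjusted p = 0.82). Il1r2 overlapped likewise with 941, 1536, 1074 and 1895 CPM (log2 fold change -0.02 ± 0.49 (SE), adjusted p = 0.99). Its group means, 1238 ± 421 (SD, n = 2) CPM labelled siCont and 1484 ± 580.3 (SD, n = 2) CPM labelled siFXR1-LNA, were in the other order than the fitted change, which uses totals scaled by TMM, so no direction is read. Tnf had 23.6, 29.5, 40.2 and 86.1 CPM, both siFXR1-LNA values being higher without passing the test (log2 fold change 0.96 ± 0.47 (SE), adjusted p = 0.32). Il18 had 17.1, 9.85, 3.44 and 7.33 CPM, with both siFXR1-LNA values lower (log2 fold change -1.48 ± 0.52 (SE), adjusted p = 0.15).

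The granulocytes of the groups fell into different subclusters as well. Subcluster 0 (led by Ccrl2 and Ccl3) held 0 and 14 siCont cells and 5379 and 4460 siFXR1-LNA cells, and subcluster 1 (led by Camp and Ltf, genes of neutrophil granules) held 433, 883, 60 and 308 cells. The listed mast cell markers Mcpt4, Cma1, Cpa3 and Tpsb2 were also among the leading genes of subcluster 1. Il1rn and Il1r2 were themselves among the genes that set subcluster 0 apart from all other cells. Il1rn was at 385 and 794 CPM in the siFXR1-LNA cells of subcluster 0 and at 146, 61.3, 64.8 and 104 CPM in the shared subcluster 1, where the groups overlapped. Within subcluster 1 the log2 fold change of Il1rn was -0.42 and that of Il1b -1.20, both in the other direction and uncalled (a choice made after seeing the data). Mast cell markers moved with the groups as well: all 8 were detected in the granulocytes of each library and summed to 2811, 1445, 130.2 and 191 CPM, and the 8 granulocyte markers summed to 37273, 80772, 28492 and 45025 CPM. The part of these differences in the Il1rn result was not tested.

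The change of 2 members differed between granulocytes and macrophages when the difference itself was tested, in one fit with the library as a block. For Il1r2 the change was -3.25 ± 0.38 (SE) log2 units (granulocytes minus macrophages) (adjusted p = 1.06e-06), and for Il1b it was -1.63 ± 0.36 (adjusted p = 0.0054). Of all 14626 genes tested for this difference 4.45% were called, and 2 of 9 members. Il1r2 remained called whichever library was left out, while Il1b had an adjusted p of 0.78 without siFXR1-LNA replicate 1 and 0.30 without replicate 2. Il1rn, called in both types, had a difference of 0.68 ± 0.38 (adjusted p = 0.40). The granulocyte markers in macrophages also differed between the groups, at 105, 418, 1112 and 1350.3 CPM. The part of this granulocyte RNA in the differences of Il1r2 and Il1b was not tested.

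The balance of antagonist to agonist within the same cells was taken as the ratio of Il1rn UMIs to Il1b UMIs, which does not depend on the total of the type. In granulocytes it was 0.358 and 0.0911 in the siCont replicates and 0.658 and 0.724 in the siFXR1-LNA replicates. Both siFXR1-LNA ratios were above both siCont ratios, with a log2 difference of 1.93 that a design of this size cannot call (two-sided exact permutation test, p = 0.333, the smallest p that 2 against 2 libraries can give). Migratory DCs had the same order, with 0.211 and 0.107 against 0.352 and 0.374 (log2 difference 1.28, exact p = 0.333). Macrophages did not separate, with 0.736 and 0.222 in the siCont replicates and 0.328 and 0.297 in the siFXR1-LNA replicates (log2 difference -0.37, exact p = 1). In macrophages siCont replicate 1, the library with the most Il1rn in erythrocyte droplets, gave the highest ratio. The siCont replicates differed widely from each other, for example 0.170 against 0.0228 in DCs. The 6 types with at least 10 UMIs of both genes in every library were compared, and every p adjusted over the 6 was 1.

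Dendritic cells also showed members of the axis at higher levels in the libraries labelled siFXR1-LNA. In DCs, which take up and present antigen, Il1b had 50.8 and 81.8 CPM in siCont replicates 1 and 2, against 254 and 264 CPM in those labelled siFXR1-LNA. It rose (log2 fold change 1.91 ± 0.25 (SE), adjusted p = 0.016), as 1 of 7 members tested. Of 11404 genes in DCs 2.68% were called and 1.32% were higher. That call was lost without siFXR1-LNA replicate 1 (adjusted p = 0.12) or replicate 2 (0.081). Il1rn and Il1r2 were higher in both siFXR1-LNA libraries and uncalled, with 8.63, 1.86, 27.6 and 33.5 CPM for Il1rn (adjusted p = 0.076) and 41.1, 71, 165 and 139 CPM for Il1r2 (adjusted p = 0.059). Among the DC subclusters, the one led by Mgl2 and Cd209a held most of the Il1b, at 76.7, 104, 344 and 357 CPM. Granulocyte markers summed to 132, 717, 1275 and 1089 CPM in DCs, and their part was not tested. In migratory DCs, which carry antigen to lymph nodes, 2 of 5 members rose, against 3.05% of 7814 genes called and 1.43% called higher.

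Those 2 members in migratory DCs were the inhibitors. Il1rn had 14.9, 15.7, 92.5 and 79.3 CPM (log2 fold change 2.39 ± 0.30 (SE), adjusted p = 0.0067) and Il1r2 had 5.84, 14.1, 149 and 113 CPM (log2 fold change 3.69 ± 0.40 (SE), adjusted p = 0.0043). Il1b had 70.6, 147, 263 and 212 CPM, with higher values in both siFXR1-LNA libraries that did not pass the test (log2 fold change 1.04 ± 0.35 (SE), adjusted p = 0.17). The calls of Il1rn and Il1r2 held with each library left out. Both calls rested on few UMIs, 47 and 83 of Il1rn and 28 and 124 of Il1r2 in the siCont and siFXR1-LNA groups. The cells numbered 386, 164, 68 and 90. Granulocyte markers summed to 77.5, 356, 4396 and 1475 CPM in migratory DCs, and Il1r2 per 1000 of these UMIs was 75.3, 39.5, 33.9 and 76.5. In granulocytes Il1r2 per 1000 was 25.2, 19, 37.7 and 42.1, below migratory DCs except in siFXR1-LNA replicate 1. Il1rn per 1000 was 192, 44.2, 21 and 53.8 in migratory DCs against 3.91, 0.760, 13.3 and 16.5 in granulocytes, higher in migratory DCs in each of the 4 libraries. The part of granulocyte RNA in these calls was not tested.

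A cluster led by Kcnd2 and Zfpm2 had 3 of 5 epithelial markers raised and also 4 of 5 mesothelial markers, and it is called epithelial here by the first list alone. In it 2 of 6 members tested rose, against 7.87% of 13117 genes called and 2.98% called higher, and both came from very low control levels. Il1b had 1.75, 3.84, 30.5 and 34.6 CPM (log2 fold change 3.92 ± 0.41 (SE), adjusted p = 0.00082) and Il1r2 had 3.32, 1.92, 43.4 and 46.2 CPM (log2 fold change 3.92 ± 0.34 (SE), adjusted p = 0.00046). Il1rn had 43.2, 20.2, 30.0 and 32.4 CPM with overlapping groups (log2 fold change -0.09 ± 0.31 (SE), adjusted p = 0.90). Granulocyte markers in these cells summed to 98.6, 159, 1269 and 866 CPM. Per 1000 of those UMIs Il1b gave 17.7, 24.1, 24.1 and 39.9 and Il1r2 33.7, 12, 34.2 and 53.3 in epithelial cells. In granulocytes these quotients were 10.9, 8.34, 20.2 and 22.8 for Il1b and 25.2, 19, 37.7 and 42.1 for Il1r2. Epithelial cells were thus higher for Il1b in all 4 libraries and on both sides of granulocytes for Il1r2. B cells gave 34.5, 9.05, 20.0 and 38.5 for Il1b, on both sides of epithelial cells. Mean levels in siFXR1-LNA B cells were 73.2 CPM for Il1b and 105 CPM for Il1r2. These exceeded the siFXR1-LNA means of 32.6 and 44.8 CPM in epithelial cells. The part of granulocyte RNA in both calls was not tested.

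Lymphoid cells, which are not known to express Il1b at high levels, gave no call of a member with all 4 libraries and the filter on low counts. In B cells 0 of 7 members passed, against 0.0883% of 12458 genes called and 0.0722% called higher, with 1788 genes at an unadjusted p under 0.05, and DESeq2 called 3 members and 464 genes. With edgeR, 4 members were called in B cells without siCont replicate 1, 3 without siCont replicate 2, 4 with the replicate number as a block, 4 with no filter and 2 without the top doublet scores. Il1b in B cells had 4.28, 7.78, 42.4 and 104 CPM, and granulocyte markers there summed to 124, 859.6, 2122 and 2705 CPM. In T cells 0 of 7 passed, against 0.307% of 12033 genes called and 0.199% called higher, with 1386 at an unadjusted p under 0.05, and DESeq2 called 0 members and 346 genes. In T cells edgeR called 1 member with the block and 3 with no filter. In erythrocytes 0 of 7 passed, against 0% of 11624 genes, with 1191 at an unadjusted p under 0.05, and DESeq2 called 0 members and 52 genes. In mast cells, where 2.63% of 1447 genes were called and 1.31% called higher, no member passed the filter on low counts. NK cells and platelets had too few cells in some libraries for a test.

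**Figure D4:**
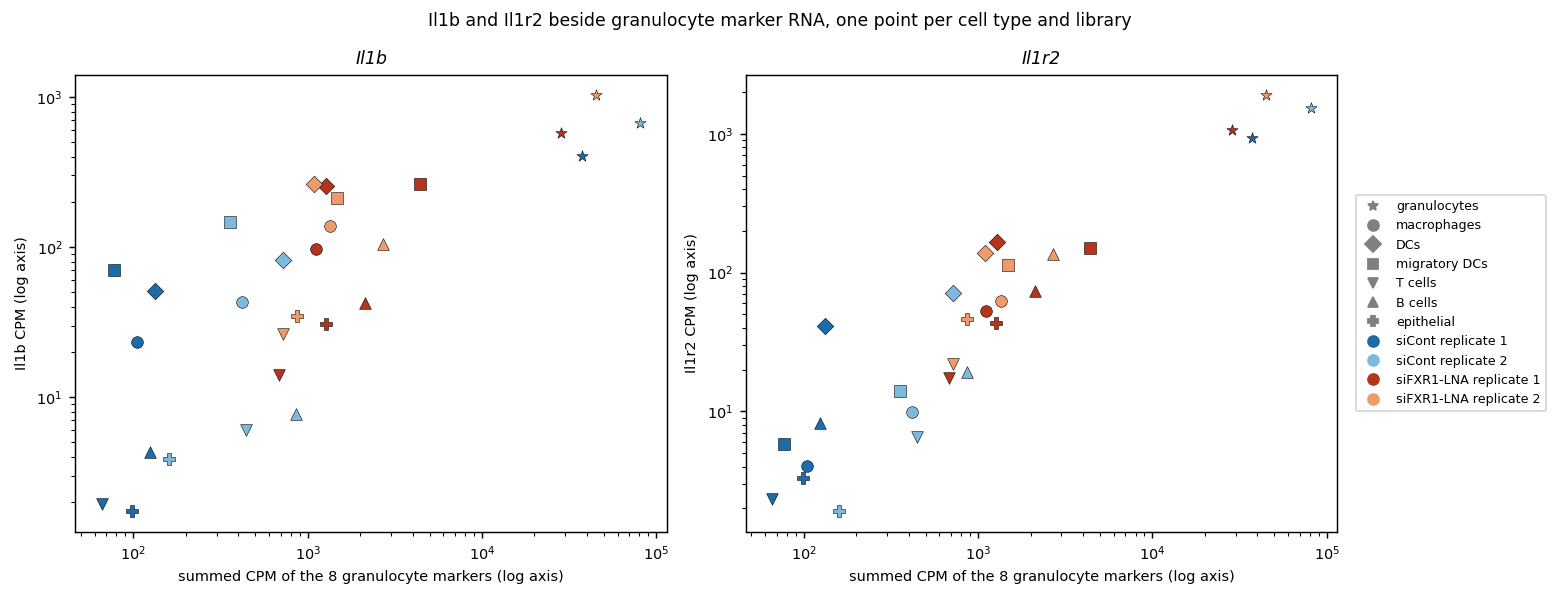
Il1b (left) and Il1r2 (right) in CPM against the summed CPM of the 8 granulocyte markers, with 1 point per cell type (shape) and library (color), on log axes. Il1r2 follows the markers across B, T, epithelial and macrophage sums, and for the same marker sum DCs and macrophages hold more Il1b than B cells.

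Shares of cells with a transcript were taken for Il1b and Il1rn. Cells were thinned to 500 UMIs each, and no cell had to be left out. Il1b was seen in 1.17%, 2.01%, 3.61% and 4.91% of macrophages and 18.5%, 27.2%, 18.5% and 28% of granulocytes. As a background, 0.330%, 0.278%, 1.47% and 2.30% of B cells and 0.131%, 0.392%, 0% and 0% of erythrocytes held an Il1b UMI, where 0 of 22 and 0 of 63 cells allow shares of up to 13.6% and 4.76%. The macrophage shares of Il1b were above those of B cells in each library, the B cell shares were higher in both siFXR1-LNA libraries too, and granulocyte shares overlapped between the groups. Il1rn was seen in 5.54%, 3.01%, 16% and 27.2% of granulocytes, with both siFXR1-LNA libraries above both siCont libraries (two-sided exact permutation test, p = 0.333, the smallest possible, and no p was lower after adjustment over the 10 shares compared). The exact binomial 95% interval was 3.58% to 8.14% in siCont replicate 1 and 15% to 17% in siFXR1-LNA replicate 1, and such intervals cover counting error only. In macrophages Il1rn was seen in 0.892%, 0.561%, 1.58% and 2.05%, beside 0.661%, 0.0795%, 1.47% and 2.46% of B cells. The macrophage share of Il1rn was thus below that of B cells in siFXR1-LNA replicate 2 and near it in siFXR1-LNA replicate 1. In replicate 2 the binomial intervals overlapped, at 1.61% to 2.56% in macrophages and 1.41% to 3.96% in B cells. The part of background RNA in the macrophage shares was not tested.

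Without thinning, Il1b was seen in 6.02%, 12.5%, 13.8% and 19.3% of macrophages at median depths of 4944, 7933, 5217 and 8605 UMIs, and in 39.5%, 46%, 42.5% and 56.1% of granulocytes at 1534, 1410, 1867 and 2111 UMIs. Unthinned shares of B cells with Il1b were 0.799%, 1.75%, 6.46% and 9.37%, at median depths of 2385, 2718, 2024 and 2296 UMIs. The order of the libraries was the same with and without thinning in macrophages, where replicate 2 exceeded replicate 1 in both groups.

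Il18 and its inhibitor did not follow the IL-1 genes. In macrophages Il18 had 27.5 and 37.2 CPM in siCont replicates 1 and 2, against 24.9 and 30.3 CPM in those labelled siFXR1-LNA. The groups overlapped (log2 fold change -0.04 ± 0.20 (SE), adjusted p = 0.90). Il18bp had 27.1, 32.8, 17.4 and 23.5 CPM, with both siFXR1-LNA libraries below both siCont libraries and no call (log2 fold change -0.36 ± 0.20 (SE), adjusted p = 0.25). The ratio of Il18bp to Il18 UMIs in macrophages was 0.983, 0.881, 0.699 and 0.776 (log2 difference -0.34, exact permutation p = 0.333, the smallest possible). Il18bp was highest in the Slfn4 and Cxcl10 subcluster, at 51.1 and 56.6 CPM, which hardly any siFXR1-LNA cells belonged to. In the shared Alox15 and Prg4 subcluster Il18bp had 22.2, 23.3, 23.1 and 37.9 CPM, and its change turned to 0.43 (adjusted p = 0.61, a choice made after seeing the data). In DCs Il18 had 41.9, 47.1, 29.1 and 29.1 CPM, lower in both siFXR1-LNA libraries and uncalled (log2 fold change -0.66 ± 0.18 (SE), adjusted p = 0.13). Its level was highest in the DC subcluster led by Xcr1 and Clec9a, at 58.6, 75.1, 42.3 and 33.4 CPM.

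Il6 and Il10 were rare transcripts in all cell types. Macrophages held 73.1%, 73.2%, 55.3% and 62.9% of the Il10 UMIs and 34.6%, 66%, 69.6% and 77.1% of the Il6 UMIs. Il10 in macrophages had 2.95, 1.73, 2.06 and 2.22 CPM (log2 fold change 0.06 ± 0.35 (SE), adjusted p = 0.92) and Il6 had 0.780, 1.79, 1.41 and 1.13 CPM (log2 fold change 0.17 ± 0.52 (SE), adjusted p = 0.83). The CPM means of both genes were slightly lower in the siFXR1-LNA libraries, 2.14 ± 0.111 (SD, n = 2) against 2.34 ± 0.861 (SD, n = 2) for Il10, while the changes fitted on TMM-scaled totals were above 0, so no direction is read. Neither change exceeded the spread between libraries. At these depths a level of 0.0913 to 0.173 CPM corresponds to 3 UMIs, and small changes of both genes were not detectable.

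Tnf in T cells differed strongly between replicates of one label, with 23.4, 15.3, 3.87 and 32.9 CPM. T cell subcluster 2, led by Cd163l1, Trdv4 and Tcrg-V6, held the highest Tnf among T cells, at 94.9, 133, 16 and 80.1 CPM. Genes of this subcluster relative to other T cells included Il1r1, the signalling receptor of IL-1. In mast cells, known to store and release Tnf, the level was 17, 43.4, 0 and 70.9 CPM over 66 to 114 cells per library, and Il6 had 1 UMI in each library. The groups overlapped for Tnf in T cells and mast cells.

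The wider pathway was read from 40 genes for receptors, inflammasome parts, adaptors with NF-κB and feedback inhibitors. In macrophages 14 rose and 3 fell, against 19.3% of all genes called in either direction, and the median change of the 40 was 0.21 beside 0.0071 over all genes. Of the 8 feedback inhibitors 6 rose and none fell (median log2 fold change 1.73), of 13 adaptors and NF-κB genes 4 rose, of 11 receptors 3 rose and 2 fell, and of 8 inflammasome and processing genes 1 rose and 1 fell. Il1r1 had 1.56, 0.576, 61.8 and 54.4 CPM (log2 fold change 5.90 ± 0.37 SE), with both siCont libraries near 0. Tnfaip3, which encodes the NF-κB inhibitor A20, had 7.28, 5.99, 86.6 and 82.7 CPM (3.86 ± 0.14). Irak3, an inhibitory Irak kinase of macrophages, had 32.9, 36.3, 183 and 181 CPM (2.58 ± 0.14). Nfkbia, which encodes IκBα, had 154, 262, 647 and 782 CPM (1.96 ± 0.31). For all 4 of these genes both siFXR1-LNA libraries lay above both siCont libraries.

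Il18rap, a part of the IL-18 receptor, and Socs3, a feedback inhibitor of cytokine receptors, rose by 1.92 and 1.83 on the log2 scale in macrophages. The 3 genes that fell there were Il1rl1, the IL-33 receptor, with 15.8, 7.43, 1.19 and 2.28 CPM (-2.53 ± 0.49), Il10ra, the IL-10 receptor (-0.92 ± 0.17), and Aim2, a DNA sensor of the inflammasome (-0.72 ± 0.13). Mast cells are known for high Il1rl1, and the 8 mast cell markers, all detected, summed to 892, 294, 42.3 and 53.1 CPM in macrophages. That part was not tested. In the shared Alox15 and Prg4 subcluster alone 0 of the 40 genes were called. Without siFXR1-LNA replicate 1 the pathway calls in macrophages numbered 5, and without siFXR1-LNA replicate 2 they numbered 7.

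In granulocytes 3 of 39 tested pathway genes rose and 1 fell, against 3.58% of all genes called and 1.1% called higher. With single libraries left out the calls numbered 12 without siCont replicate 2, 11 without siCont replicate 1, 2 without siFXR1-LNA replicate 1 and 3 without siFXR1-LNA replicate 2, and there were none in the shared subcluster or with no filter. Those that rose were Irak3 (23.6, 53.3, 325 and 490.0 CPM, log2 fold change 3.06 ± 0.55 SE), Tnfaip3 (2.68 ± 0.44) and Tnip1, which encodes a partner of A20 (2.02 ± 0.44). Il1rl1 fell (38, 26.6, 5.30 and 6.72 CPM, -2.63 ± 0.41), in the type whose summed mast cell markers had lower values under the siFXR1-LNA label. Irak3, Tnfaip3 and Tnip1 were called higher in both granulocytes and macrophages. In DCs 7 of 40 rose and none fell, against 2.68% of all genes called and 1.32% called higher. None was called without either siFXR1-LNA library, 9 without either siCont library, 1 at the clustering resolution of 0.3 and 2 without the top doublet scores. Of the 7, 5 were feedback inhibitors, Nfkbia among them with 78, 92.4, 318 and 301 CPM (1.81 ± 0.17). In the test of whether the change differed between granulocytes and macrophages, 4 of 40 pathway genes were called, against 4.45% of all 14626 genes. As granulocytes minus macrophages, these were Il1r1 (-4.97 ± 1.04), Socs3 (-2.04 ± 0.40), Nlrp3 (-1.52 ± 0.37) and Il10ra (2.10 ± 0.40). In the shared subclusters alone 0 of 39 tested pathway genes were called. The 4 calls did not all hold with either siFXR1-LNA library left out. The plot of pathway genes shows the changes in macrophages and granulocytes by list.

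**Figure D5:**
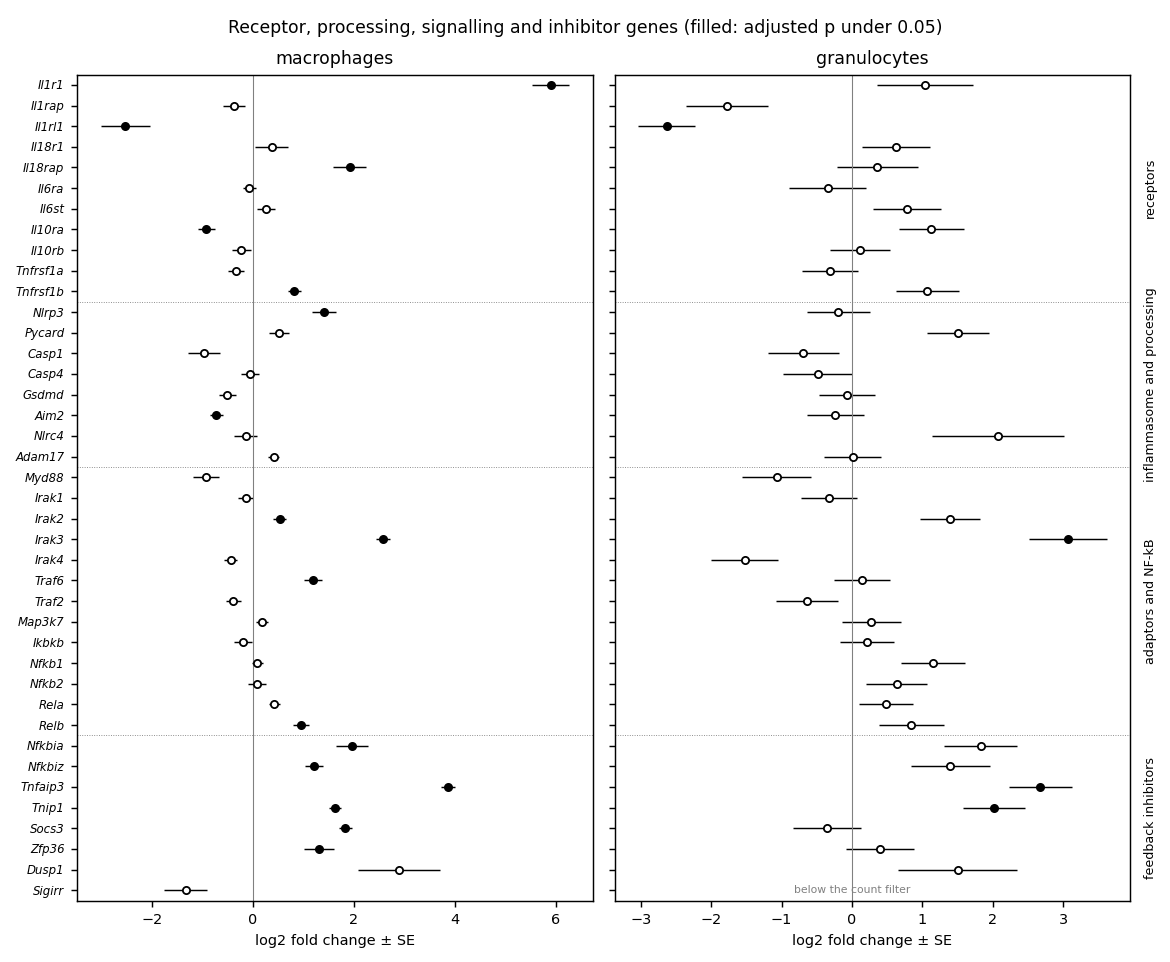
Log2 fold change (siFXR1-LNA against siCont) of the 40 pathway genes in macrophages and granulocytes, grouped by list, with filled points for an adjusted p under 0.05 and bars for the standard error. Feedback inhibitors lie mostly above 0 in macrophages, and Il1r1 has the largest rise there.

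Genes with the most similar pattern were ranked by Pearson's r of log2(CPM + 1) over 44 sums, each a cell type in a library, among 14110 genes. The sums of one library share its depth and background RNA, so r is a description. Nearest to Il1b were Siglece (0.87), Stfa2l1 (0.86) and Upp1 (0.86), nearest to Il1r2 were Trem1 (0.88), Upp1 (0.88) and Mmp8 (0.86), and nearest to Il1rn were Upp1 (0.81), Alas1 (0.80) and Mir22hg (0.80). Upp1, which encodes a uridine phosphorylase, appeared in all 3 lists, and Trem1 and Mmp8 are genes known from neutrophils. For Il1a the nearest were Ptges (0.84), Cxcl13 (0.83) and Fth1 (0.79), of which Ptges encodes the prostaglandin E synthase and was also a leading gene of the Saa3 and Nos2 macrophages. Il18 was nearest to Stx2 (0.83), Sgk3 (0.78) and Tifa (0.76), and Il18bp to Adap1 (0.82), Abhd5 (0.81) and Alpk1 (0.80). The rarer Tnf (E230032D23Rik (0.82), 4930581F22Rik (0.80) and Ints6l (0.77)) and Il10 (Gm38560 (0.76), Gm16096 (0.75) and Gm10358 (0.74)) are listed for completeness. Between members, r was 0.81 for Il1b with Il1r2 and 0.71 for Il1rn with each of these.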

How the data were processed

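Ascites cells were measured in 4 single-cell libraries, 2 per label. The authors deposited UMI counts for each gene in each barcode, which were not normalized. Per the labels, Cell Ranger 7.0.0 on mm10 produced them (the methods name another version). Gene positions came from GENCODE vM21 (GRCm38) and promoters from RefSeq (GRCm38.p6).

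The cell filter of the methods was applied (100 to 4800 genes, mitochondrial UMIs up to 15%), and what remained was clustered without integration in Seurat 5.3.0 (2000 variable genes, 50 components, resolution 0.1). A cluster was named from listed markers when at least 3 were raised 2-fold and seen in 5% of its cells, with a further condition for erythrocytes (median hemoglobin share of 30%). That naming rule was set after clusters had been seen. Macrophages, granulocytes and T cells were clustered again. Macrophage subclusters named by the DC list became the DCs, and a T cell subcluster named by the NK cell list became the NK cells. Of the others, subclusters with at least 2 raised markers of another lineage were set aside. Doublets were not removed before deposit as far as the sources used here say, and leaving out the top 5% of Scrublet scores (scanpy 1.11.5) was an alternative.

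UMI counts were summed per library and type, with at least 10 cells in every library, and compared with edgeR 4.0.16 (TMM, filterByExpr, quasi-likelihood test, Benjamini-Hochberg, threshold 0.05). The difference of change between granulocytes and macrophages was tested as an interaction term, blocking on library. The fits were tested on simulated data. Shares and ratios were compared by exact permutation over libraries. Shares carry exact binomial 95% intervals, after thinning to 500 UMIs, and a count of 0 is given a limit of 3 UMIs or cells. Total UMIs per library were 101500063, 88346685, 113606837 and 78179267. The members and lists were chosen with earlier results of these data known. Beside the 9 members, the text names pathway genes past the threshold in macrophages or granulocytes (up to 6 of largest size per direction and type), the 3 genes most like each member with at least 200 UMIs, Fxr1 and leading genes of subclusters. Nfkbia in DCs was named after its values were seen. Per the methods, the authors dropped a siFXR1-LNA library for its low reads and cell number, without saying which. All 4 libraries were used, and siFXR1-LNA replicate 2 was the smaller of its pair. Alternatives were RLE normalization, no filter, the replicate number as a block, DESeq2 1.42.0, other cell filters and resolution, other thinning depths, and each library left out.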

Additional observations from a re-analysis of the deposited data

Results flagged for a closer look

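The change of Il1r2 with the label differed between granulocytes and macrophages by -3.25 ± 0.38 (SE) on the log2 scale, and that of Il1b by -1.63 ± 0.36, by the test of the difference itself (granulocytes minus macrophages). In both cases macrophages rose and granulocytes did not pass the test. Granulocyte marker RNA was also higher in the siFXR1-LNA macrophages, and its part in these differences was not tested.

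The largest unnamed cluster, which no comparison used, held transcripts of 3 members above the levels of both siCont libraries. Il1r2 had 27 and 30.1 CPM in siFXR1-LNA replicates 1 and 2 and 24.2 and 22.4 CPM in the siCont replicates. Tnf had 1.81 and 3.26 CPM and Il10 0.261 and 1.09 CPM in the siFXR1-LNA replicates, and both were at 0 in the siCont replicates. The siCont part of this cluster was 57 and 53 cells, in which a count of 0 allows up to 36.3 and 33.6 CPM, so a difference between the groups was not detectable at this depth.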

How the results depend on the processing

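Values were recomputed with 1 choice changed at a time. The rises of Il1b and Il1r2 in epithelial cells, those of Il1rn and Il1r2 in migratory DCs, and the difference of the Il1r2 change between granulocytes and macrophages kept their call under every alternative run on them. That of Il1a in macrophages was lost only in the shared subcluster. What follows gives the values that moved, and the cause of each was not tested apart from the smaller number of cells or libraries that an alternative itself makes.

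In the shared subcluster alone, an alternative chosen after seeing the data, macrophages had 0 members, 0 pathway genes and 0 genes called, against 5, 17 and 2762, and granulocytes had 0, 0 and 45, against 2, 4 and 439. The count for the difference of change was 47 genes against 651, and 3 of 7 members tested were called against 2 of 9: Il1r2 (-4.07), Il1b (-3.48) and Il1rn (-2.02, from 0.68 over all cells). Log2 changes turned to -0.59 for Il6, -0.68 for Il10 and 0.43 for Il18bp in macrophages and to -1.20 for Il1b and -0.42 for Il1rn in granulocytes, and the log2 ratio of Il18bp to Il18 to 0.71. With set-aside subclusters returned, also chosen after seeing the data, the log2 ratio of Il1rn to Il1b in macrophages turned to 0.14, and T cells had 61 genes called against 37.

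With no filter on low counts, 0 members, 0 pathway genes and 0 genes were called in granulocytes, where Il1r2 turned to 0.047. The same setting called 6 members, 11 pathway genes and 1432 genes in DCs (1, 7 and 306 with the filter), 678 genes in migratory DCs (238), 1950 in epithelial cells (1032), 4 members and 1103 genes in B cells (0 and 11), 3 members and 930 genes in T cells (0 and 37) and 98 genes in erythrocytes (0). DESeq2 called 7 pathway genes in granulocytes, 3 members and 527 genes in DCs, 3 members and 464 genes in B cells, 346 genes in T cells, 52 in erythrocytes and 418 for the difference of change. At a resolution of 0.3, DCs had 0 members, 1 pathway gene and 100 genes called, T cells 60 genes, and Il18 in macrophages turned to 0.0086. Without the top 5% of doublet scores, DCs had 2 pathway genes and 185 genes and B cells 2 members and 21 genes called. With at least 500 genes per cell, 1 member in granulocytes and 4 genes in erythrocytes were called. With at most 5% mitochondrial UMIs, epithelial cells had 646 genes called and Il10 in macrophages turned to -0.036. Thinned to 300 UMIs, the difference in the share of granulocytes with Il1b turned to -0.98 percentage points from 0.40.

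The groups share replicate numbers 1 and 2 in the labels, and nothing in the labels ties equal numbers to each other. With 2 pairs per type, the deviations of equally numbered libraries correlated at 0.01 to 0.37 over 9 cell types, so the pairing is not established. With the replicate number as a block, granulocytes had 14 pathway genes and 1464 genes called, DCs 3 members and 828 genes, migratory DCs 773 genes, epithelial cells 1634, B cells 4 members and 825 genes, T cells 1 member and 469 genes and erythrocytes 141 genes. With this block Il1r2 in granulocytes turned to 0.010, and the fall of Il18 there, -1.51, had an adjusted p of 0.039.

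With each library left out in turn, where a lone library is assumed to vary like the other group, counts of called members ranged over 1 to 5 in macrophages, 0 to 2 in granulocytes, 0 to 3 in DCs, 0 to 4 in B cells and 1 to 3 for the difference of change. Pathway calls ranged over 5 to 16 in macrophages, 2 to 12 in granulocytes and 0 to 9 in DCs. Genes called ranged over 397 to 1713 in macrophages, 147 to 2325 in granulocytes, 0 to 869 in DCs, 266 to 681 in migratory DCs, 651 to 2056 in epithelial cells, 0 to 1184 in B cells, 45 to 571 in T cells, 0 to 4 in erythrocytes and 104 to 2471 for the difference of change. Log2 changes that crossed 0 were those in macrophages of Il6 (-0.35 to 0.91), Il10 (-0.23 to 0.46) and Il18 (-0.28 to 0.23) and those in granulocytes of Il1b (-0.22 to 0.91), Il1r2 (-0.52 to 0.59) and Il18bp (-0.78 to 0.91). The log2 ratio of Il1rn to Il1b crossed 0 in B cells (-2.03 to 0.87), DCs (-0.53 to 2.37), T cells (-3.71 to 0.37) and macrophages (-1.24 to 0.49), and the share of granulocytes with Il1b ranged over -4.34 to 5.14 percentage points.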

Other observations

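The T cell subcluster led by Cd163l1 and Tcrg-V6 numbered 427, 149, 116 and 443 cells. Of all Tnf UMIs, T cells held 22.1%, 20.6%, 0.840% and 5.59% and granulocytes 3.29%, 11%, 47.9% and 55.7%. Over whole libraries without hemoglobin in the totals, Tnf had 8.03, 9.69, 9.58 and 28.4 CPM, with siFXR1-LNA replicate 1 at the level of the siCont libraries. Il18 over whole libraries without hemoglobin had 20.1, 26, 8.89 and 20.3 CPM, and its groups overlapped.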
